A study of Mus musculus with 9 samples.

Results

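Mast cells store histamine and serotonin, and the genes described here encode the enzymes and the carrier that make, load and break down these amines. The set comprised 6 genes, chosen by name from the amine and tryptophan pathways with earlier results of these data known: Hdc, Slc18a2, Tph1, Ddc, Hnmt and Afmid. They were represented by 12 of the 25697 probes in the deposited table, in which the platform annotation names 16593 genes. A single probe stood for each of Hdc, Slc18a2, Tph1, Ddc and Hnmt, and 7 probes for Afmid. The cells were grown from the bone marrow of mice labelled C57BL/6J of 3 genotypes: normal controls, AhR null mice, and mice with the AhR-d genotype. The aryl hydrocarbon receptor (AhR) controls transcription once a ligand has bound to it, and the d allele is known for a receptor that binds ligands less tightly. All cultures had 4 weeks in medium with 30% conditioned medium from WEHI-3, a cell line that secretes IL-3, were purified by bead depletion of other cells, and rested 4 h without cytokine. Each genotype was measured on 3 single-colour Illumina bead arrays, 1 in each of 3 numbered batches. The labels do not say what a batch shares, whether animals were pooled, or which animal gave which batch, so each p-value reflects only how far such cultures differed.

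Histamine is made from histidine in 1 step by histidine decarboxylase, the product of Hdc. Serotonin is made from tryptophan in consecutive steps: tryptophan hydroxylase, in mast cells the product of Tph1, adds a hydroxyl group, and aromatic amino acid decarboxylase, the product of Ddc, removes the carboxyl group. The vesicular monoamine transporter encoded by Slc18a2 loads both amines into granules, where they are bound by proteoglycans. Hnmt encodes the methyltransferase that inactivates histamine. Afmid encodes the formamidase that acts in the kynurenine pathway, the main route of tryptophan breakdown, and kynurenine is a known AhR ligand.

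The arrays differed in brightness, with a mean raw signal from 324 on control replicate 1 to 684 on AhR-d replicate 1, and values below are quantile-normalised log2 signals unless stated. A probe was called detected where its detection p-value was under 0.01. The Ahr probe was detected on 0 of 9 arrays, controls included, so it gives no check of the genotypes. Of 11 mast cell markers, 9 to 11 were detected on each array; those that differed between genotypes are described with the other cell type markers. The AhR-d arrays differed among themselves in another respect. Of 12 neutrophil markers, 8 and 7 were detected on AhR-d replicates 2 and 3, against 0 on AhR-d replicate 1, 0 on every control array and 5 to 7 on AhR null arrays.

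Hdc was high in AhR null cells, intermediate in AhR-d cells and low in control cells. Its normalised signal was 10.71, 11.24 and 10.55 in control replicates 1 to 3, then 11.66, 12.74 and 12.01 in AhR-d, and 13.58, 13.95 and 13.44 in AhR null. No array of 1 genotype overlapped with any array of another. The raw signal of the same probe ran from 1067 to 2727 among control arrays, from 2445 to 6395 among AhR-d arrays and from 12044 to 20659 among AhR null arrays. In AhR null, Hdc rose over control by 2.82 on the log2 scale (SE 0.25, limma adjusted p = 9.57e-06), a 7.08-fold difference with a 95% interval from 4.86 to 10.3. It also rose over AhR-d by 1.52 (SE 0.25, adjusted p = 0.00496), or 2.87-fold. Against control, AhR-d was higher by 1.30 (SE 0.25, adjusted p = 0.0463), or 2.47-fold with an interval from 1.69 to 3.6.

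The AhR null differences of Hdc held with every single array left out (2.68 to 3.02 over control, 1.28 to 1.82 over AhR-d). In the fit without a batch term, the AhR-d call was close to the threshold. The AhR-d difference stayed between 1.00 and 1.54, but its adjusted p passed the threshold without AhR-d replicate 1 (0.0145) or control replicate 2 (0.0235) and missed it without any other array: control replicates 1 (0.27) and 3 (0.153), AhR-d replicates 2 (0.236) and 3 (0.0789), and AhR null replicates 1 (0.0839), 2 (0.0571) and 3 (0.0519), the last of which enter only through the shared spread. AhR-d replicate 1, on which 0 neutrophil markers were detected, exceeded the control of its batch by 0.95; the other batches gave 1.5 and 1.46. With AhR-d replicates 2 and 3 both left out, an alternative chosen after seeing the data, the difference was 0.83 (adjusted p = 0.49) for the remaining array, which is assumed to vary like the other genotypes, and AhR null exceeded that array by 2.00 (adjusted p = 0.0073). With batch as a block, Hdc passed in AhR-d at adjusted p = 0.00016.

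Slc18a2, the granule loading transporter, followed the same order of genotypes with smaller steps. It stood at 13.05, 13.04 and 12.85 in control cultures, at 13.30, 13.14 and 13.25 in AhR-d and at 13.79, 13.64 and 13.74 in AhR null. The 3 genotypes did not overlap, and the spread within a genotype was small (SD 0.08 to 0.11). In the deposited median-centred values control (12.84 to 13.62) and AhR-d (13.04 to 14.09) did overlap. There AhR-d lay below control in batch 2 (13.54 against 13.62), and AhR null (14.24 to 14.45) stayed above both. The rise in AhR null over control was 0.75 (SE 0.13, adjusted p = 0.00196), or 1.68-fold with an interval from 1.38 to 2.03. It was seen in every batch (0.75, 0.60 and 0.88) and passed with every single array left out (0.68 to 0.79). AhR-d lay 0.25 above control (SE 0.13, adjusted p = 0.716), with an interval from -0.03 to 0.52. AhR null lay 0.50 above AhR-d (SE 0.13, adjusted p = 0.0621), with nearly equal values by batch of 0.50, 0.51 and 0.49, and this difference passed with batch as a block (adjusted p = 0.0202).

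**Figure D1:**
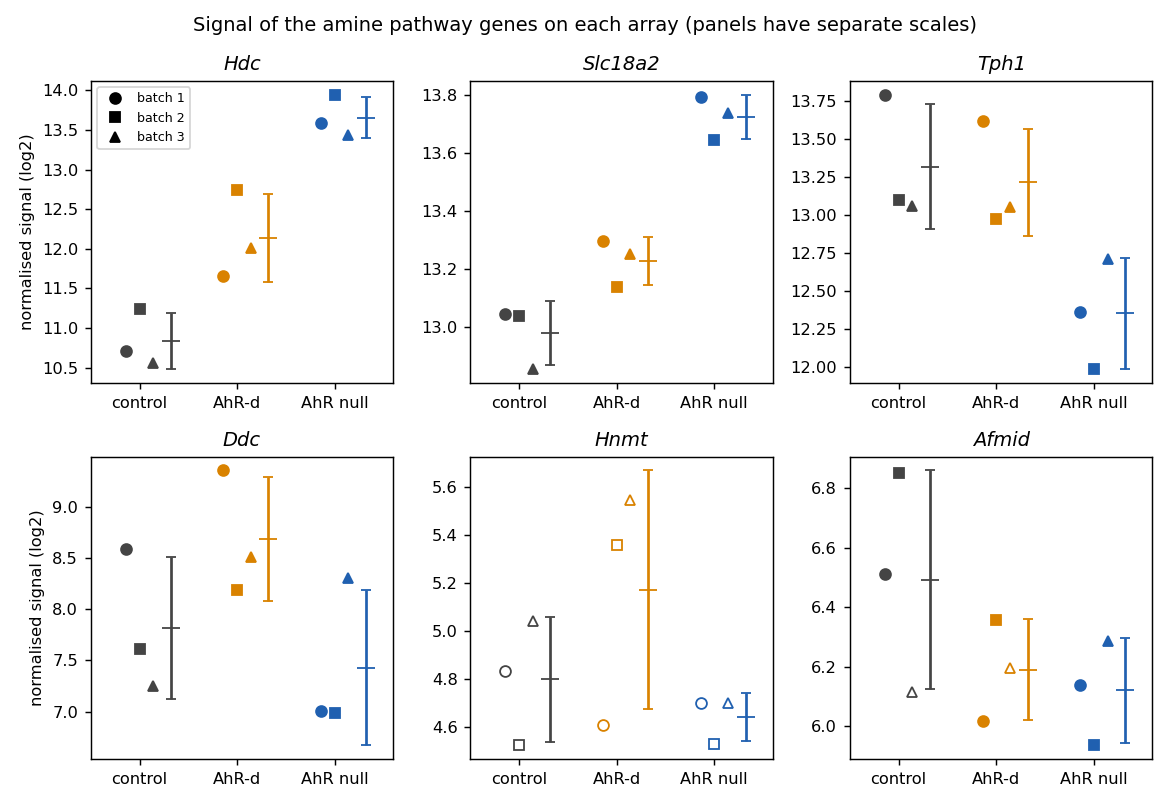
Normalised log2 signal of the 6 genes (brightest probe of Afmid) on each array by genotype, with marker shape for batch, filled symbols for arrays with a detection p-value under 0.01, and bars for the mean and SD of 3 arrays. Hdc rose from 10.55 to 11.24 in control up to 13.44 to 13.95 in AhR null, Slc18a2 kept the same order in smaller steps, and Tph1 was lowest in AhR null.

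Tph1, which encodes the hydroxylase that starts serotonin synthesis, went the other way. Its signal was 13.79, 13.10 and 13.06 in control and 13.62, 12.97 and 13.06 in AhR-d. In AhR null it was 12.36, 11.98 and 12.71. Control and AhR-d overlapped, while each AhR null array was below all 6 of the others. Tph1 fell in AhR null by 0.97 against control (SE 0.24, adjusted p = 0.0165), to 0.511 times the control level with an interval from 0.36 to 0.727. The size varied by batch, at -1.43, -1.12 and -0.35 in batches 1 to 3. Without control replicate 1 it was -0.73 (adjusted p = 0.0839), without AhR null replicate 1 it was -0.97 (0.0561) and without AhR null replicate 2 it was -0.78 (0.0786). In the fit without a batch term, the call thus rested on each of these arrays. AhR null lay below AhR-d by -0.86 (SE 0.24, adjusted p = 0.0799), which passed with batch as a block (adjusted p = 0.00715). AhR-d and control were close, with a difference of -0.10 and an interval from -0.61 to 0.40 (adjusted p = 0.963).

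The fall of Tph1 depended on how arrays were scaled. In the deposited median-centred values it was -0.49 (adjusted p = 0.339), and with median scaling after background correction -0.46 (adjusted p = 0.376). Those scalings moved the median of all features between AhR null and control to 0.289 and 0.532, against -0.028 after quantile normalisation. The raw Tph1 signal itself ran from 5382 to 9992 in control and from 5634 to 7508 in AhR null, which overlap.

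Ddc encodes the decarboxylase that completes serotonin synthesis. It was detected on all 9 arrays, at 8.58, 7.61 and 7.25 in control cultures, 9.35, 8.18 and 8.51 in AhR-d and 7.0, 6.98 and 8.30 in AhR null. All 3 genotypes overlapped. Its difference from control was -0.39 in AhR null (SE 0.42, adjusted p = 0.587) and 0.87 in AhR-d (SE 0.42, adjusted p = 0.686). The batches gave -1.58, -0.63 and 1.06 in AhR null, which differ in sign, and 0.77, 0.57 and 1.26 in AhR-d, which share one. Between the altered genotypes Ddc lay at -1.25 in AhR null relative to AhR-d (SE 0.42, adjusted p = 0.149), with -2.35, -1.20 and -0.20 by batch. With 1 array left out, that difference ran from -1.69 to -0.92.

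The arrays took the same order for both serotonin enzymes within each genotype. Replicate 1 was highest and replicate 3 lowest among controls for Tph1 and for Ddc. Among AhR-d arrays the order from high to low was replicate 1, 3 and 2 for both genes, and among AhR null arrays it was 3, 1 and 2. Hdc was ordered otherwise: replicate 2 was highest in all 3 genotypes, and in AhR-d and AhR null that was the lowest array for Tph1 and Ddc. Slc18a2 shared the order of Tph1 and Ddc in control and AhR-d but not in AhR null, where replicate 1 was highest. These orders describe 3 arrays a genotype and carry no test. Control replicate 1, highest for both enzymes among controls, had the lowest mean raw signal of the 9 arrays, and AhR-d replicate 1, highest for both among AhR-d arrays, had the highest; the part of brightness in these orders was not tested.

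**Figure D2:**
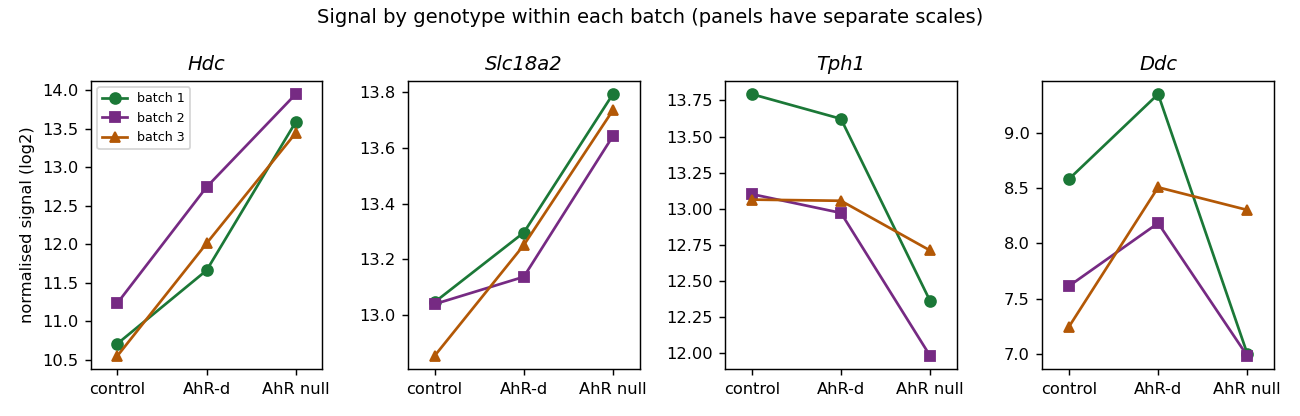
Normalised log2 signal of Hdc, Slc18a2, Tph1 and Ddc by genotype, with 1 line for each batch. After quantile normalisation Hdc and Slc18a2 climbed from control through AhR-d to AhR null in all 3 batches. The AhR null step of Ddc was -1.58 in batch 1 and 1.06 in batch 3 against control.

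The promoters of the 3 genes that passed the threshold in AhR null are shown because AhR, with its partner ARNT, is known to bind a core of the letters GCGTG. The sequences are the 250 bases before listed transcription starts, from RefSeq on build GRCm38.p6, 5′ to 3′ on the gene's strand. The windows of Hdc, Hnmt and Afmid lie inside the span RefSeq gives the gene. For Hdc that span reaches to 126624025 on the minus strand, so any start further upstream was not scanned. Capitals mark GCGTG or its reverse complement CACGC. Tph1 had a pair of listed starts, and the arrays do not tell which was used.
Hdc, chr2:126618679-126618928 on the minus strand: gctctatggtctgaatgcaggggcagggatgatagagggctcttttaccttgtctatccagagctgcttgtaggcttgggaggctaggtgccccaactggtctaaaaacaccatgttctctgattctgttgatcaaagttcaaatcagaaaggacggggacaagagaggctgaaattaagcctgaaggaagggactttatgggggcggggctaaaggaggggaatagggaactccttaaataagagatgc
Slc18a2, chr19:59260628-59260877 on the plus strand: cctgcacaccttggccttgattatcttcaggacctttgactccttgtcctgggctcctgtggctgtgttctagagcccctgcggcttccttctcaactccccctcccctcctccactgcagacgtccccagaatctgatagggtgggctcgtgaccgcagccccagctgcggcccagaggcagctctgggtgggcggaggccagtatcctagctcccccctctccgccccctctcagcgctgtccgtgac
Tph1, upstream start, chr7:46672538-46672787 on the minus strand: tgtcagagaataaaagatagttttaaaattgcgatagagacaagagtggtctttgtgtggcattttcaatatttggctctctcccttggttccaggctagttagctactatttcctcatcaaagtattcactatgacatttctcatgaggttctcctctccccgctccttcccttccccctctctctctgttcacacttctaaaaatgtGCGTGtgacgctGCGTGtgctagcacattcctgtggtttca
Tph1, downstream start, chr7:46667378-46667627 on the minus strand: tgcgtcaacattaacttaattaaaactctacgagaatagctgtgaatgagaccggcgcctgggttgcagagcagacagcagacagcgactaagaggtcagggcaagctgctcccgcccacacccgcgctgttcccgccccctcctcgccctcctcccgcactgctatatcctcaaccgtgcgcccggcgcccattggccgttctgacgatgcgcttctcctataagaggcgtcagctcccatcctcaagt
The windows of Hdc and Slc18a2 held 0 matches to the AhR core, which for Hdc covers only the start inside its span. The upstream window of Tph1 held 2, beginning 41 and 29 bases before the start, and its downstream window 0. Among the other members, only the upstream window of Ddc held the core, with 1 match 80 bases before its start; Hnmt, Afmid and the downstream start of Ddc had none. On either strand, 28.1% of 32817 mouse promoter windows of the same length held the core. The letters GATA, the centre of the motif bound by GATA factors, occurred 2 times in the Hdc window and 3 times in that of Slc18a2. They occurred 2 times and 1 time in the windows of Tph1, and in none of those of Ddc, Hnmt and Afmid. Of all windows, 53.6% held them on either strand. The E-box letters CACGTG and CATGTG, which MITF is known to bind, were in none of the member windows, against 6.02% and 12.3% of all windows.

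Hnmt, the histamine methyltransferase gene, was undetected on all 9 arrays. Its detection p-values ran from 0.0501 to 0.912 and its raw signal from 127 to 191, so no level or difference can be given for it. Of the other amine-degrading enzymes with a probe, several were also undetected on all arrays. These were Aoc1, Aoc2 and Aoc3, which encode amine oxidases, and Maoa, a monoamine oxidase gene. Maob, the other monoamine oxidase gene, was clearly present, at 11.75 ± 0.24 in control cultures, 11.88 ± 0.32 in AhR-d and 11.73 ± 0.12 in AhR null. Its difference in AhR null was -0.02 (SE 0.18, adjusted p = 0.967).

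Afmid was faint, and its probes disagreed about whether it was present. Of its 7 probes, 1 was detected on 7 arrays, 1 on a single AhR null array and 5 on none. The detected probe read 6.51, 6.85 and 6.12 in control cultures, 6.02, 6.36 and 6.2 in AhR-d and 6.14, 5.94 and 6.29 in AhR null, and the genotypes overlapped. It missed detection on control replicate 3 and AhR-d replicate 3, where the detection p-values were 0.0138 and 0.015. Its difference from control was -0.37 in AhR null (SE 0.30, adjusted p = 0.448) and -0.30 in AhR-d (SE 0.30, adjusted p = 0.872). The intervals, from -1.01 to 0.26 and from -0.94 to 0.33, leave room for a fall of about the size seen for Tph1 or for a small rise.

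**Figure D3:**
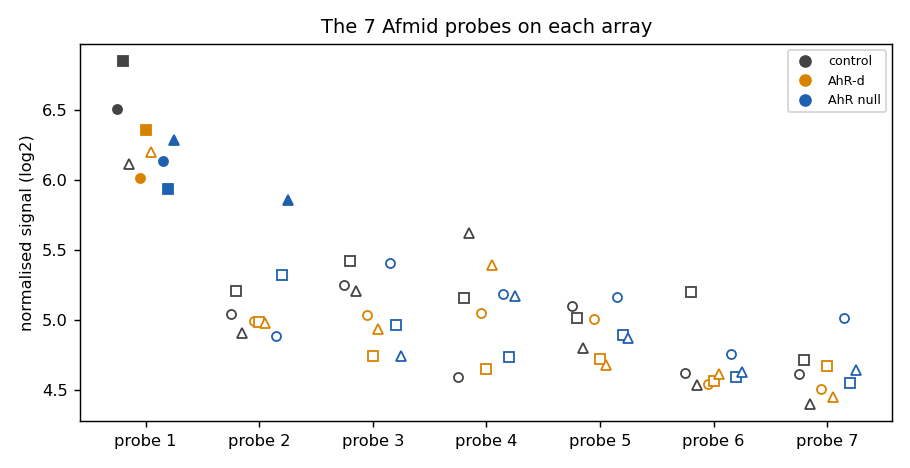
Normalised log2 signal of the 7 Afmid probes on each array, ordered by mean signal, coloured by genotype, with marker shape for batch and filled symbols for arrays with a detection p-value under 0.01. Probe 1 was detected on 7 arrays and probe 2 on 1, and the other 5 stayed undetected.

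Of the 6 genes, 5 had a probe that passed the detection filter and were tested. In AhR null against control, 2 of the 5 rose, 1 fell and 2 did not pass, where 12.4% of the 7449 features tested were called, 6.56% as higher and 5.8% as lower. In AhR-d against control, 1 rose and 4 did not pass, with 0.336% of features called, 0.282% as higher and 0.0537% as lower. In AhR null against AhR-d, 1 rose and 4 did not pass, with 2.48% called, 0.819% as higher and 1.66% as lower. The median difference of the 5 was -0.37, 0.25 and -0.07 in these comparisons, beside -0.03, -0.01 and 0.00 over all features. The genotypes did not overlap for 3, 2 and 3 of the 5, where 34.3%, 10.5% and 23.5% of all features were likewise apart. The comparisons with control share the same 3 control arrays. Members were chosen with earlier results of these data known, so these counts carry no test. Members that pass only through the genotype where they are bright would differ by selection, but Hdc, Slc18a2, Tph1 and Ddc were each detected on all 9 arrays.

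**Figure D4:**
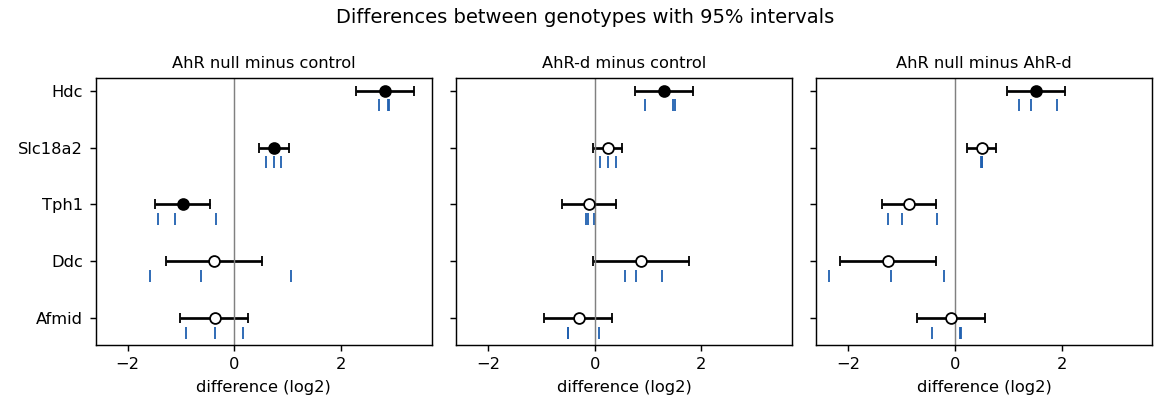
Log2 difference of the 5 tested genes in each comparison (points, filled where the adjusted p was under 0.05) with the 95% interval of the limma fit, and below each the values in batches 1 to 3 (ticks). Hdc passed in all 3 comparisons at 2.82, 1.30 and 1.52, and Slc18a2 and Tph1 passed in AhR null against control alone.

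The lists of genes around these reactions hold 94 genes, of which 84 had a probe and 42 were tested; 39 of those with a probe were undetected on every array. Lists and members overlap in part. Of all 7449 features tested, 2106 had an unadjusted limma p under 0.05 in AhR null against control. The number was 561 in AhR-d against control and 1247 in AhR null against AhR-d. Counts of list and marker genes at that level are read against these numbers. Tetrahydrobiopterin, the cofactor that tryptophan hydroxylase needs, is made by a list of which 6 genes were tested, and 0 passed in any comparison in the limma fit (2 at an unadjusted p under 0.05 in AhR null against control, 0 in the other comparisons). Gch1, its rate-limiting cyclohydrolase, stood at 12.99 ± 0.11 in control cultures, 13.25 ± 0.26 in AhR-d and 13.42 ± 0.12 in AhR null (difference 0.43, SE 0.15, unadjusted p = 0.0144 from limma, adjusted p = 0.0841). Pcbd2, which helps recycle the cofactor, differed in AhR null by 0.51 (SE 0.17, adjusted p = 0.0715). Vitamin B6 gives the cofactor of both decarboxylases. Of its listed genes Pdxp alone was measured (-0.60, SE 0.26, adjusted p = 0.152). It encodes a phosphatase that acts on the cofactor and does not make it.

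Histamine breakdown and uptake had 2 measured genes besides the undetected ones. Aldh2, the mitochondrial aldehyde dehydrogenase that oxidises aldehydes formed from amines, rose in AhR null by 0.61 (SE 0.16, adjusted p = 0.0217), from 13.32 ± 0.21 to 13.93 ± 0.20. That call was lost without control replicate 1 (0.60, adjusted p = 0.0698), control replicate 3 (0.51, 0.0672) or AhR null replicate 1 (0.49, 0.11), and with no intensity trend in the variance (0.61, 0.0779). Of the histamine receptors, Hrh4, the receptor known from mast cells and eosinophils, stood at 8.17 ± 0.64 in control and 8.12 ± 0.18 in AhR null (difference -0.06, SE 0.32, adjusted p = 0.929). Hrh2 was detected on 1 array of each genotype (-0.53, SE 0.32, adjusted p = 0.293), and Hrh1 and Hrh3 on none. Of 14 serotonin receptor genes, 11 were undetected on every array. Htr2a and Htr4 were each detected on all 3 control arrays and on 2 AhR null arrays, with differences of -0.58 (SE 0.37, adjusted p = 0.336) and -0.77 (SE 0.40, adjusted p = 0.226). On AhR-d arrays Htr2a was undetected and lay below every control array, at -0.98 (SE 0.37, unadjusted p = 0.0206, adjusted p = 0.47). Slc6a4, the serotonin uptake carrier, was detected on 1 array of each genotype, at 5.42 ± 0.78 in control and 5.54 ± 0.27 in AhR null (adjusted p = 0.873).

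In the kynurenine pathway, 8 of the 12 genes with a probe were undetected on every array, including Ido1, Ido2 and Tdo2, which encode the dioxygenases that open the tryptophan ring. Of the 4 measured, 0 passed in any comparison and 0 had an unadjusted p under 0.05; Kyat1, a kynurenine aminotransferase gene, differed by 0.24 (SE 0.30, unadjusted p = 0.426, limma adjusted p = 0.637) in AhR null. The transporters of histidine and tryptophan held 6 measured genes and 0 calls in the limma fit, with 2 at an unadjusted p under 0.05 in AhR null against control, 0 in AhR-d and 1 between the altered genotypes. Slc7a8, a neutral amino acid exchanger, differed by 0.46 (SE 0.17, unadjusted p = 0.0173, adjusted p = 0.0945) and Slc15a4, a histidine transporter of endosomes and lysosomes, by 0.58 (SE 0.24, unadjusted p = 0.0277, adjusted p = 0.124). Of the transcription factors that act on mast cell genes, Mitf differed by -0.21 (SE 0.23, adjusted p = 0.583) and Gata1 by 0.27 (SE 0.25, adjusted p = 0.505). Gata2, named here after its values were seen, stood at 14.22 ± 0.13 in control cultures, 14.13 ± 0.03 in AhR-d and 14.14 ± 0.08 in AhR null.

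Genes for the granule proteoglycan, the matrix that binds histamine and serotonin, held 1 rise and 1 fall among 12 measured in AhR null against control, with a median difference of -0.12. Hs3st1, which encodes a sulfotransferase that modifies heparan chains, fell by 1.72 (SE 0.18, adjusted p = 3.88e-05), from 12.49 ± 0.17 to 10.77 ± 0.27. It also fell against AhR-d, by 1.13 (SE 0.18, adjusted p = 0.00418); AhR-d itself lay at -0.59 from control (SE 0.18, adjusted p = 0.294), which passed with batch as a fixed block (adjusted p = 0.0256) and not with batch as a random block (adjusted p = 0.0879). The fall against AhR-d was -0.67 (adjusted p = 0.294) in the deposited values and -0.75 (adjusted p = 0.343) with median scaling. Extl3, a glycosyltransferase of the same chains, rose by 0.87 (SE 0.23, adjusted p = 0.0267), and missed the threshold without control replicate 1 (0.68, 0.114), AhR null replicate 1 (0.77, 0.111) or AhR null replicate 3 (0.86, 0.0738). Ext2 (-0.49, SE 0.16, adjusted p = 0.0665) and Papss1 (-0.51, SE 0.20, adjusted p = 0.107) did not pass. Serglycin itself, encoded by Srgn and also named after its values were seen, stood at 14.47 ± 0.23 in control and 14.57 ± 0.15 in AhR null (adjusted p = 0.732).

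Mast cell maturity, basophils and immature myeloid cells can all bear on Hdc, so cell type markers are given beside it; in bulk RNA, more cells of a type and more RNA per cell cannot be told apart. The marker genes that passed are all named here, after their values were seen, and are read against the 12.4% of all features called in AhR null against control. Of 11 mast cell markers, 3 rose in AhR null and 8 did not pass. Mrgprb1, which encodes a receptor of connective tissue mast cells, was undetected in control (4.82 ± 0.15) and stood at 6.30 ± 0.18 in AhR-d and 8.61 ± 1.15 in AhR null (adjusted p = 8.2e-05 against control and 0.012 against AhR-d). It met the detection filter only through the altered genotypes, so its difference from control is in part fixed by that filter. Mcpt4, a mast cell chymase gene, stood at 6.29 ± 0.80 in control cultures, 9.07 ± 0.54 in AhR-d and 9.62 ± 2.80 in AhR null, a rise of 3.33 over control (SE 0.94, adjusted p = 0.0336). Tpsab1, a tryptase gene, stood at 8.29 ± 1.39, 9.87 ± 0.73 and 10.37 ± 0.10 in the 3 genotypes, and its rise in AhR null was 2.08 (SE 0.51, adjusted p = 0.0172). These 3 genes had the genotype order of Hdc in their means. Fcer1a, a subunit gene of the high-affinity IgE receptor, stood at 14.85 ± 0.30 in control and 14.99 ± 0.21 in AhR null (adjusted p = 0.622).

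The mast cell markers summed to 133000 to 148000 in control cultures, 139000 to 144000 in AhR-d and 119000 to 150000 in AhR null on the linear scale, in which bright genes weigh most. Their mean log2 signal gives each gene the same weight. It ran from 10.21 to 10.60 in control, 10.86 to 11.16 in AhR-d and 10.83 to 11.67 in AhR null. Control did not overlap with AhR null or AhR-d. Of single features, 34.3% and 10.5% were likewise apart in these comparisons. The mean includes the 3 genes that passed. Among the 8 others in AhR null, Cpa3 (-0.47, limma unadjusted p = 0.0208) and Hpgds (-0.70, 0.023) lay lower and Ms4a2 (0.61, 0.0113) higher. The 7 basophil markers summed to 22000 to 25800, 18900 to 26000 and 21900 to 26300. Their mean log2 signal ran from 9.09 to 9.20 in control and from 9.59 to 9.65 in AhR null. In AhR-d it ran from 8.99 to 9.79, which spans both of these ranges. That mean includes Prss34, described below. On every array 5 of the 7 were detected, and Itga2, an integrin chain gene, and Il6ra were undetected on all. Prss34, a protease gene of basophils, rose in AhR null by 2.94 (SE 0.52, adjusted p = 0.00239) and was the 1 basophil marker that passed. Its signal was 7.25, 9.50 and 7.72 in control, then 8.66, 10.62 and 10.11 in AhR-d, and 10.93, 11.54 and 10.84 in AhR null. Its highest array was replicate 2 in each genotype, as for Hdc. The mean log2 signal of the 7 basophil markers was instead highest on control replicate 3 (9.20), AhR-d replicate 2 (9.79) and AhR null replicate 1 (9.65). Mcpt8, a further basophil protease gene, differed by 0.48 (SE 0.59, adjusted p = 0.638), Cd69 by -0.44 (SE 0.18, adjusted p = 0.129) and Cd200r3 by -0.03 (SE 0.14, adjusted p = 0.92).

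The 12 neutrophil markers summed to 321 to 340 in control cultures, 330 to 5440 in AhR-d and 1270 to 2080 in AhR null. S100a8, Prtn3 and Chil3 were undetected on every control array and passed in AhR null, at 9.54 ± 0.44, 6.76 ± 0.30 and 8.32 ± 0.62. They met the detection filter only through the genotypes where they are high, so their difference from control is in part fixed by that filter. The same holds for Gp9, Klf1 and Prg2 below, which were also undetected in control. Camp, Ngp, Mmp8 and Retnlg were undetected on every array. Hdc stood at 12.74 and 12.01 on the AhR-d arrays whose neutrophil sums were 4915 and 5438. It stood at 11.66 on AhR-d replicate 1, whose sum was 330, and at 13.44 to 13.95 on AhR null arrays with sums of at most 2083. The part of neutrophil transcripts in Hdc was not tested.

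Monocyte and macrophage markers, 11 with a probe, summed to 1240 to 2820, 1920 to 7460 and 2220 to 4020 in the same order of genotypes, with calls in both directions in AhR null. Lyz2, a lysozyme gene, rose by 3.06 (SE 0.90, adjusted p = 0.0402) and Apoe, an apolipoprotein gene, by 3.69 (SE 0.48, adjusted p = 0.000204), while Cx3cr1, a chemokine receptor gene, fell by 1.60 (SE 0.35, adjusted p = 0.00816). Ccr2, C1qa, C1qc and Fcgr1 were undetected throughout. Cx3cr1 missed the threshold in the deposited values (-0.82, adjusted p = 0.0755) and with median scaling (-0.99, adjusted p = 0.106).

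Megakaryocyte and platelet markers bear on serotonin, which platelets store. Their 7 genes summed to 3380 to 4810, 2570 to 4800 and 3510 to 4180, again with opposite calls inside the sum. Vwf, the von Willebrand factor gene, fell in AhR null by 3.04 against control (SE 0.55, adjusted p = 0.0029) and by 2.33 against AhR-d (SE 0.55, adjusted p = 0.0406). Gp9, a platelet glycoprotein gene that was undetected in control (5.33 ± 0.49), passed in AhR null at 6.83 ± 0.44 (adjusted p = 0.0208). Ppbp, Gp1bb and Treml1 were undetected on every array.

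The erythroid markers that passed had the genotype order of Hdc in their means. The 7 genes summed to 332 to 535 in control cultures, 1000 to 2720 in AhR-d and 1360 to 5990 in AhR null, and 3 of the 5 measured rose in AhR null. The globin gene Hbb-y stood at 5.56 ± 0.61, 8.06 ± 1.46 and 9.93 ± 1.20, a rise of 4.37 over control (SE 0.65, adjusted p = 0.000614), and Hbb-bt rose by 3.95 (SE 0.71, adjusted p = 0.0025). Klf1, an erythroid transcription factor gene, was undetected in control (5.02 ± 0.32) and stood at 6.93 ± 0.66 in AhR null (adjusted p = 0.00983). Prg2, the 1 measured eosinophil gene, was undetected in control and stood at 7.19 ± 0.73 in AhR null (adjusted p = 0.119), and 0 lymphocyte markers could be tested.

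Among the marker calls in AhR null against control, those of Mrgprb1, Prss34, Apoe, Cx3cr1, Vwf, Hbb-bt and Hbb-y held with every single array left out. The part of the Mrgprb1 difference fixed by the detection filter remains in those fits. Tpsab1 missed without AhR null replicate 1 (adjusted p = 0.0618), Klf1 without AhR null replicate 1 (0.0525) or 2 (0.0649), and Gp9 without control replicate 3 (0.0683) or AhR null replicates 1 (0.0894) or 2 (0.0997). Mcpt4, S100a8, Prtn3, Chil3 and Lyz2 each missed without any 1 of 5 or 6 arrays, with adjusted p up to 0.0949, 0.0721, 0.0997, 0.0917 and 0.171. Against AhR-d, Vwf reached an adjusted p of up to 0.123 and Mrgprb1 of up to 0.0793 with 1 array left out. With robust variances Tpsab1 (limma adjusted p = 0.0978), Mcpt4 (0.176), S100a8 (0.144), Chil3 (0.157) and Lyz2 (0.193) missed against control. The other marker calls in AhR null against control held there. Under that setting Vwf missed against AhR-d (0.187) and Mrgprb1 passed (0.00931). Mcpt4, S100a8, Chil3 and Lyz2 also missed with no intensity trend and with no background correction. In AhR-d against control, 0 of the marker genes passed in the limma fit. Of all 7449 features tested, 561 had an unadjusted p under 0.05 there. Of the 38 marker genes measured, 17 did, among them Mcpt4 (0.0106), Lyz2 (0.000852) and Hbb-y (0.00185). The part of these markers, and of the cells they mark, in the differences of the amine genes was not tested.

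**Figure D5:**
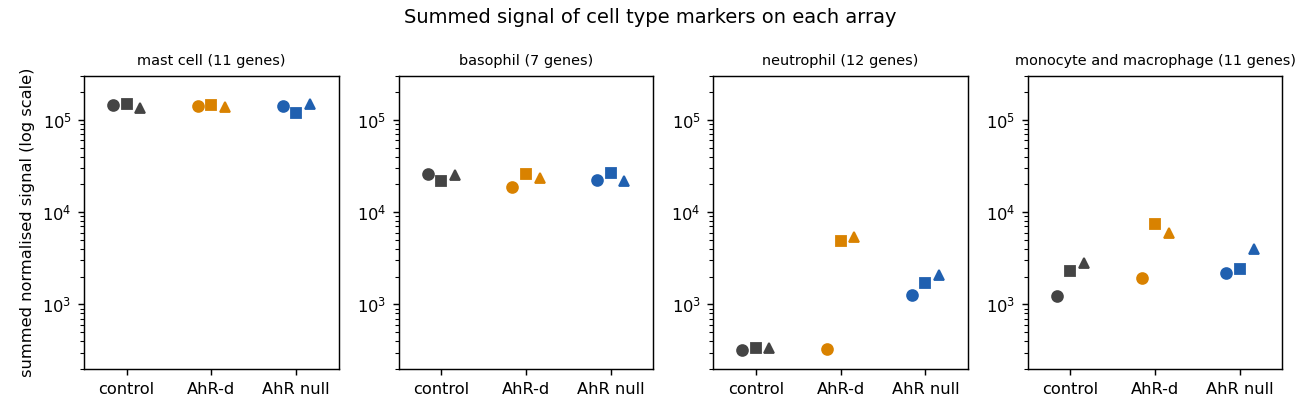
Summed normalised linear signal (log axis) of marker genes for mast cells, basophils, neutrophils, and monocytes and macrophages on each array by genotype, with marker shape for batch. Mast cell and basophil sums, carried by their brightest genes, overlapped between the 3 genotypes, and neutrophil sums were 4915 and 5438 on AhR-d replicates 2 and 3 against 330 on AhR-d replicate 1.

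The genes whose centred log2 profile over the 9 arrays lay nearest to that of Hdc, by root-mean-square difference, were Smim5 (0.26), Dlg3 (0.27), Tgm2 (0.27), Nmb (0.28) and Ngfr (0.29), where the Hdc profile itself spread by 1.20 around its mean. Each was low in control, intermediate in AhR-d and high in AhR null: Tgm2, which encodes transglutaminase 2, stood at 11.54, 13.12 and 14.20, and Ngfr, a neurotrophin receptor gene, at 8.33, 9.65 and 10.82. Smim5 was detected on 4 of the 9 arrays and the other 4 genes on all. Nearest to Slc18a2, whose own spread was 0.32, were Bag3 (0.09), Slc7a4 (0.10) and Pomp (0.11). Nearest to Tph1, with a spread of 0.53, were Psd4 (0.19), Igfbp5 (0.19) and Vegfc (0.20), each lowest in AhR null. These distances describe 9 arrays and carry no test.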

How the data were processed

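Linear intensity and detection p-values of each array were deposited by the authors in 1 table, and the submitters' processing notes name GenomeStudio; its version and any background step are not given in the sources used here. A deposited table of log2 values equals log2 intensity plus 1 constant per array that puts its median at 8. Intensities were background-corrected and quantile-normalised with neqc (limma 3.58.1, R 4.3.3, offset 16). Probes detected at p under 0.01 on at least 3 arrays were kept (9777), and the brightest probe stood for a gene, giving 7449 features (6864 named genes and 585 unnamed probes). Of all probes, 23978 had 1 symbol, 0 several and 1719 none, and 23962 matched RefSeq by Entrez identifier. A limma fit over 9 arrays, with 1 mean per genotype and an intensity trend, left 6 residual degrees of freedom. Benjamini-Hochberg adjustment ran over all features, with 0.05 as the threshold.

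Arrays of 1 batch deviated together (r from 0.111 to 0.361 in 9 pairs, -0.361 to 0.068 in 18 pairs of different batches), so with the labels' shared batches the numbers pair the arrays. The main fit and the fits with 1 array left out had no batch term, so their p-values do not use this pairing. Fits that do are named as having batch as a block. The fit was tested on simulated data with independent noise on each array and no batch term. Of 100 genes shifted by 1 on the log2 scale it called 48, and of 100 shifted by 2 it called 90, with 1 false call. Members and lists were chosen with earlier results of these data known. The genes named by rule were the members, pathway list genes that passed in any comparison, up to 2 more per pathway list by p, and the nearest profiles; all marker genes were named after their values were seen. Alternatives changed the normalisation, filter, probe summary, variance model and batch term and left out each array; leaving out AhR-d replicates 2 and 3, and the alternatives for marker genes, were added after seeing the data. A short deposited probe table with no member probe was not used. Array number limits precision.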

Additional observations from a re-analysis of the deposited data

How the results depend on the processing

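Hdc and Slc18a2 in AhR null against control, and Hdc in AhR null against AhR-d, kept their direction and call under every setting run: differences ran from 2.73 to 3.34, 0.71 to 1.13 and 1.49 to 2.00 over the settings other than single arrays left out. Hdc in AhR-d lost its call in the deposited values (1.34), with no background correction (1.24) and, at 1.30, with probes detected on all 9 arrays, with 2 genotypes fitted, with robust variances, with no intensity trend and with the mean of a gene's probes. Under each of these the count of members called in AhR-d was 0. With AhR-d replicates 2 and 3 left out it was 0.83, 0 members. Tph1 in AhR null lost its call in the deposited values (-0.49), with median scaling (-0.46) and with no intensity trend (-0.97). With 1 array left out, members called numbered 2 to 3, 0 to 1 and 1 to 2 in AhR null against control, AhR-d against control and AhR null against AhR-d. In that order, Hdc ran from 2.68 to 3.02, 1.00 to 1.54 and 1.28 to 1.82; in AhR null against control Slc18a2 ran from 0.68 to 0.79 and Tph1 from -1.15 to -0.73.

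Features called in AhR null against control numbered 1580 with batch as a block, 1425 with a random block and 503 to 1000 with 1 array left out. In AhR-d they numbered 9 in the deposited values, 41 with median scaling, 7 without background correction, 6 with detection on all arrays, 118 with the block, 70 with the random block, 10 with 2 genotypes, 13 without trend, 11 with probe means, 0 without AhR-d replicates 2 and 3, and 5 to 46 with 1 array left out. In AhR null against AhR-d they numbered 502 with the block, 371 with the random block, 55 without AhR-d replicates 2 and 3, and 82 to 243 with 1 array left out; the pairing then gave 3 members called under either block, Slc18a2 and Tph1 joining Hdc, and changed no other call of a member. Calls in AhR null against control split into 489 higher and 432 lower, but 825 and 90 in the deposited values and 837 and 86 with median scaling; in AhR-d the split was 21 and 4, then 9 and 0 in the deposited values; in AhR null against AhR-d it was 61 and 124, then 138 and 26, and 88 and 36.

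Signs turned among differences near 0 that were not called. Ddc in AhR null against control was 0.10 in the deposited values and 0.25 with median scaling, and Afmid 0.01 and 0.10. Afmid against AhR-d was 0.08 and 0.25 there, 0.10 without AhR-d replicates 2 and 3, and -0.16 to 0.02 with 1 array left out. Tph1 in AhR-d was 0.04 with median scaling, 0.30 without AhR-d replicates 2 and 3, and -0.31 to 0.13 with 1 array left out. The cause of these changes was not tested. Signal over background limits Hnmt, undetected, and Afmid, whose probe missed detection on 2 arrays.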
